A study of Homo sapiens with 15 samples.

Results

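LNCaP cells with a knockdown of G9a were compared with LNCaP cells with a knockdown of JARID2. The comparison used 6 of the 15 libraries of the series, the 3 named shG9a and the 3 named shJarid2. It covered 11922 of the 26443 genes with values, namely those with an RPKM (reads of a gene relative to its length and to all mapped reads of that library) of at least 1 in at least 3 of the 6 libraries. LNCaP is a long-established human line of prostate cancer cells that respond to androgen, and the labels give its genotype as WT in every group. All cells had received a lentivirus 4-5 days earlier. In shG9a it carried a short hairpin RNA against G9a, the product of EHMT2, in shJarid2 one against JARID2, and in pLKO, shown here for context, the control vector. The shPALI1 and shsuz12 libraries entered only the estimate of the spread between replicates. The labels give 1 hairpin name per target, so the loss of a target and any other effect of its hairpin cannot be told apart.

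G9a is a histone methyltransferase that marks lysine 9 of histone H3, a modification found on repressed genes. JARID2 is an accessory subunit of PRC2, which methylates histone H3 at lysine 27 and holds developmental genes silent. In prostate luminal cells the androgen receptor drives the kallikreins and other secretory genes, and enzymes of the UGT2B family inactivate androgens by attaching glucuronic acid to them. The series title concerns PALI1, PRC2 and chromatin bound by G9a. The comparison sets a hairpin against an H3K9 methyltransferase beside a hairpin against a PRC2 subunit in one cell line.

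Depth, worked out from the size of 1 read in short RNA genes, was 13.62, 15.2 and 14.33 M reads in shG9a and 15.83, 14.71 and 12.45 M in shJarid2. A gene model of 2 kb at 1 RPKM thus corresponded to 24.9 to 31.7 reads. Across genes, log2(RPKM + 1) values correlated with r between 0.9914 and 0.9932 within shG9a and between 0.9248 and 0.9368 across the 2 groups. Replicate 3 of shJarid2 stood apart from its group, with r of 0.9731 and 0.9775 to replicates 1 and 2, which had r of 0.9925 between them; values without it are given where it changes a call or moves a value by over 1.5 times. As correlations across genes they carry no p. The labels do not say whether replicates came from separate cultures, so the p-values rest on the spread among libraries that may be technical replicates.

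The targeted genes followed the labels. EHMT2, on chromosome 6 (chr6:31879759-31897687 in GRCh38, minus strand), was at 0.939, 0.939 and 0.988 RPKM in the shG9a libraries, against 2.68, 2.42 and 2.87 RPKM in shJarid2 and 3.72 ± 0.391 RPKM (SD, n = 3) in pLKO. All shG9a libraries lay below all shJarid2 libraries, with a log2 difference of -0.90 ± 0.077 (SE, limma adjusted p = 2.01e-07). EHMT2 was also at 71.5% of the pLKO mean in shJarid2. JARID2 (chr6:15246296-15522040, plus strand) was at 8.176, 8.003 and 8.002 RPKM in shG9a, against 1.70, 1.72 and 1.32 RPKM in shJarid2 and 8.62 ± 0.386 RPKM in pLKO. Its difference was 1.82 ± 0.080 (adjusted p = 2.997e-10), without overlap. EHMT2 reached the level filter only through shJarid2.

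Genes of the locus that encodes PALI1 and the PRC2 subunit SUZ12 were read in the same libraries. C10orf12, the row that marks PALI1, was at 5.20, 4.56 and 4.76 RPKM in shG9a and at 3.98, 3.16 and 1.36 RPKM in shJarid2, where replicate 3 was lowest. It was higher in shG9a (log2 difference 0.67, adjusted p = 0.01134); without shJarid2 replicate 3 the difference was 0.36 (adjusted p = 0.03113), and with the 6 libraries alone the call was lost (adjusted p = 0.05687). SUZ12 averaged 18.9 ± 1.09 RPKM in shG9a and 18.4 ± 2.89 RPKM in shJarid2, and LCOR averaged 4.24 ± 0.204 RPKM in shG9a and 3.97 ± 1.20 RPKM in shJarid2; both overlapped and did not pass (adjusted p = 0.7565 for SUZ12 and 0.5677 for LCOR), and the sign of both turned without shJarid2 replicate 3. C10orf12 lies in the LCOR locus, so reads of one row may belong to the other.

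Of the tested genes, 58.2% differed between the knockdowns, in near equal numbers each way. With limma on log2(RPKM + 1), 3331 genes were higher in shG9a (27.9% of those tested) and 3613 were lower (30.3%), at a Benjamini-Hochberg adjusted p under 0.05. Both directions together came to 48.9% with the 6 libraries alone, 46.5% with these and a replicate block, and 37.9% of 20479 genes with no filter. Most differences were small, with a median absolute log2 difference of 0.32. At least 2-fold differences were found for 376 higher genes (3.15%) and 536 lower genes (4.5%), and 66 genes passed with a log2 difference of at least 2 in either direction. The libraries of the 2 groups did not overlap for 7228 genes (60.6%). Rescaling each library to a common sum (TPM) moved the median of all genes to 0.11, against -0.01 as deposited, and turned the split to 4339 higher and 2740 lower, so that 61.3% of the genes that passed were higher, in place of 48%. The filter let 254 genes in through shG9a alone and 123 through shJarid2 alone; 363 of these passed the test, as such genes had to differ.

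**Figure D1:**
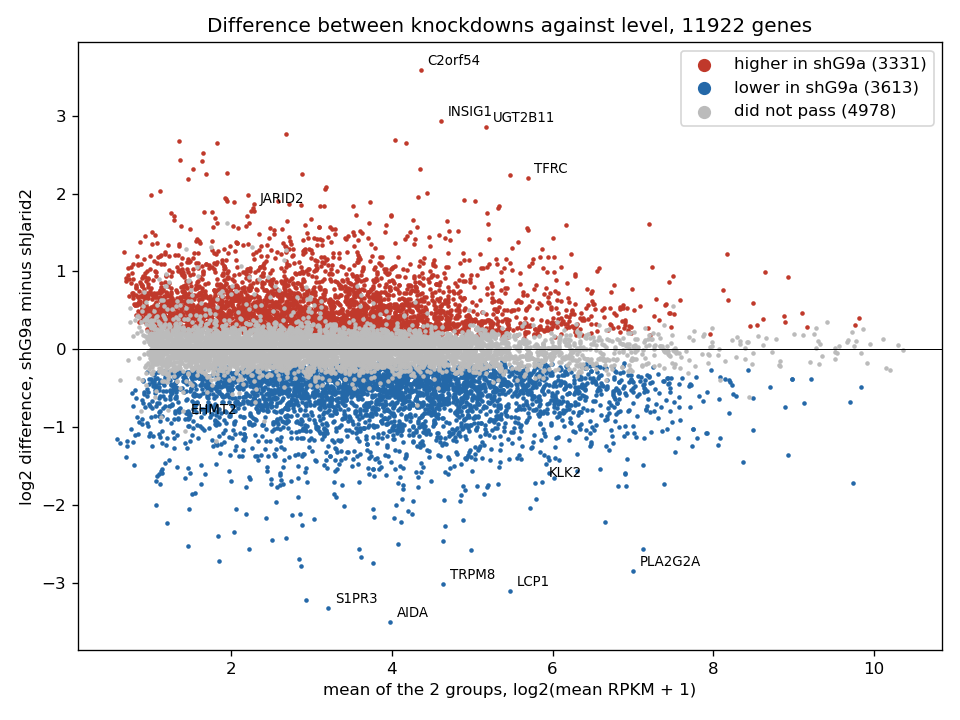
Log2 difference of log2(RPKM + 1), shG9a minus shJarid2, of 11922 genes (vertical axis) against their mean level in the 2 groups (horizontal axis, log2 scale). Each point is a gene; the 3331 genes higher and 3613 genes lower in shG9a spread over the whole range of levels, and C2orf54 and AIDA lie farthest from 0.

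The largest difference upwards was in C2orf54, which GENCODE now calls MAB21L4 (chr2:240886048-240896889, minus strand). It was at 65.1, 72.0 and 71.0 RPKM in shG9a, against 6.04, 3.31 and 5.55 RPKM in shJarid2 and 0.228 ± 0.120 RPKM in pLKO, so that it was lowest in pLKO. The shG9a mean was 13.97 times the shJarid2 mean (log2 difference 3.59 ± 0.15 SE, adjusted p = 1.982e-10). INSIG1, which holds the sterol-regulated transcription factors SREBP in the endoplasmic reticulum, was at 65.2, 68.0 and 67.2 RPKM in shG9a and at 7.957, 7.129 and 8.498 RPKM in shJarid2. It was 8.496-fold higher in shG9a (log2 difference 2.94 ± 0.080, adjusted p = 5.719e-12), and the pLKO libraries, at 34.8 ± 3.66 RPKM, lay between the groups. TFRC, the transferrin receptor that brings iron into cells, was at 107.8, 112.6 and 107.6 RPKM in shG9a, against 26.5, 23.5 and 19.2 RPKM in shJarid2 and 101.5 ± 5.53 RPKM in pLKO. USP22, a deubiquitinase of the SAGA coactivator complex, was at 96.8, 97.9 and 89.9 RPKM in shG9a, against 21.52, 18.98 and 17.56 RPKM in shJarid2 and 88.4 ± 7.09 RPKM in pLKO. Both were near the control level in shG9a and low in all 3 shJarid2 libraries, with log2 differences of 2.21 for TFRC and 2.24 for USP22.

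Tubulin, protease and lipid genes were among the other large differences upwards. TUBB3, a beta tubulin best known from neurons, was at 38.4, 42.9 and 41.0 RPKM in shG9a, against 5.20, 5.73 and 5.45 RPKM in shJarid2. TUBA1A, an alpha tubulin, was at 7.445, 8.211 and 8.002 RPKM in shG9a, against 0.510, 0.412 and 0.324 RPKM in shJarid2. The pLKO libraries lay between the groups for both, at 11.6 ± 1.69 RPKM for TUBB3 and 3.87 ± 0.555 RPKM for TUBA1A. TMEM245 was at 43.8, 45.4 and 43.6 RPKM in shG9a and at 6.96, 6.28 and 5.48 RPKM in shJarid2 (log2 difference 2.65). APOD, a lipid-carrying lipocalin, was at 14.2, 16.7 and 14.3 RPKM in shG9a and at 2.40, 2.23 and 2.42 RPKM in shJarid2 (log2 difference 2.26). MMP10, a matrix protease, was at 4.34, 5.65 and 5.00 RPKM in shG9a and between 0.0913 and 0.116 RPKM in shJarid2, which is a few reads. ALOX12B, a lipoxygenase of the skin barrier, was at 6.14, 4.76 and 5.49 RPKM in shG9a and between 0.257 and 0.303 RPKM in shJarid2. TUBA1A, MMP10 and ALOX12B reached the filter only through shG9a. In GENCODE, 48.1% of the exon bases of TUBB3 and 23.1% of those of ALOX12B are shared with another gene, so their reads may be too.

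The largest differences downwards were in signalling, actin and prostate genes. AIDA (chr1:222668013-222713210, minus strand), which encodes a protein that binds the Wnt regulator axin, was at 4.25, 2.89 and 3.88 RPKM in shG9a, against 51.4, 55.7 and 48.9 RPKM in shJarid2 and 16.3 ± 1.71 RPKM in pLKO. The shJarid2 mean was 14.16 times the shG9a mean (log2 difference -3.51 ± 0.11 SE, adjusted p = 1.039e-11). S1PR3, a receptor for sphingosine 1-phosphate, was at 1.96, 2.02 and 1.75 RPKM in shG9a, against 29.9, 29.7 and 25.2 RPKM in shJarid2 and 5.10 ± 0.420 RPKM in pLKO. Its 2 groups were 14.78-fold apart (log2 difference -3.33 ± 0.083, adjusted p = 4.651e-12). LCP1, the actin-bundling protein L-plastin, was at 14.6, 14.2 and 13.5 RPKM in shG9a, against 131.4, 144.1 and 114.9 RPKM in shJarid2 and 42.5 ± 3.17 RPKM in pLKO (log2 difference -3.11). For AIDA, S1PR3 and LCP1 the pLKO libraries lay between the groups without overlap.

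Secreted phospholipases A2 and the cold-sensing channel TRPM8 were far above both other groups in shJarid2. TRPM8, an androgen-responsive prostate gene, was at 6.79, 8.10 and 8.31 RPKM in shG9a, against 75.8, 73.9 and 59.6 RPKM in shJarid2 and 5.85 ± 0.491 RPKM in pLKO (log2 difference -3.01). PLA2G2A was at 45.1, 44.1 and 49.3 RPKM in shG9a, against 291.5, 290.6 and 458.9 RPKM in shJarid2 and 15.9 ± 3.14 RPKM in pLKO (log2 difference -2.85). PLA2G2F was at 0.810, 0.774 and 1.10 RPKM in shG9a, against 8.55, 9.55 and 13.2 RPKM in shJarid2 and 0.171 ± 0.112 RPKM in pLKO (log2 difference -2.57). In all 3 genes pLKO was the lowest group. Replicate 3 of shJarid2 was the highest library for both phospholipases and the lowest of its group for TRPM8.

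The prostate secretory gene ACPP, which encodes prostatic acid phosphatase, was at 3.85, 4.38 and 4.46 RPKM in shG9a, against 33.7, 35.7 and 32.8 RPKM in shJarid2 and 12.2 ± 0.778 RPKM in pLKO (log2 difference -2.75 ± 0.075 SE, adjusted p = 5.719e-12). SLC30A4, a zinc transporter, was at 13.03, 10.9 and 10.75 RPKM in shG9a, against 98.1, 92.7 and 43.7 RPKM in shJarid2, where replicate 3 was lowest, and 57.1 ± 3.88 RPKM in pLKO. Low SLC30A4 in shG9a was thus set against shJarid2 values on either side of the control. ID1, an inhibitor of basic helix-loop-helix factors, was at 4.35, 3.85 and 3.34 RPKM in shG9a and at 24.6, 32.1 and 33.4 RPKM in shJarid2 (log2 difference -2.67). THBS1, the matrix glycoprotein thrombospondin, was at 1.997, 1.662 and 1.705 RPKM in shG9a and at 20.3, 18.5 and 13.2 RPKM in shJarid2 (log2 difference -2.70). RBM24, an RNA-binding regulator of splicing in muscle, was at 1.75, 1.88 and 1.69 RPKM in shG9a and at 17.9, 19.5 and 17.3 RPKM in shJarid2 (log2 difference -2.79). For ID1, THBS1 and RBM24 the pLKO libraries lay between the groups. CCDC85A had the same order of groups, at 0.406, 0.330 and 0.473 RPKM in shG9a, against 8.15, 8.64 and 7.92 RPKM in shJarid2 (log2 difference -2.72). It reached the filter only through shJarid2, and 49.8% of its exon bases are shared with another gene.

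**Figure D2:**
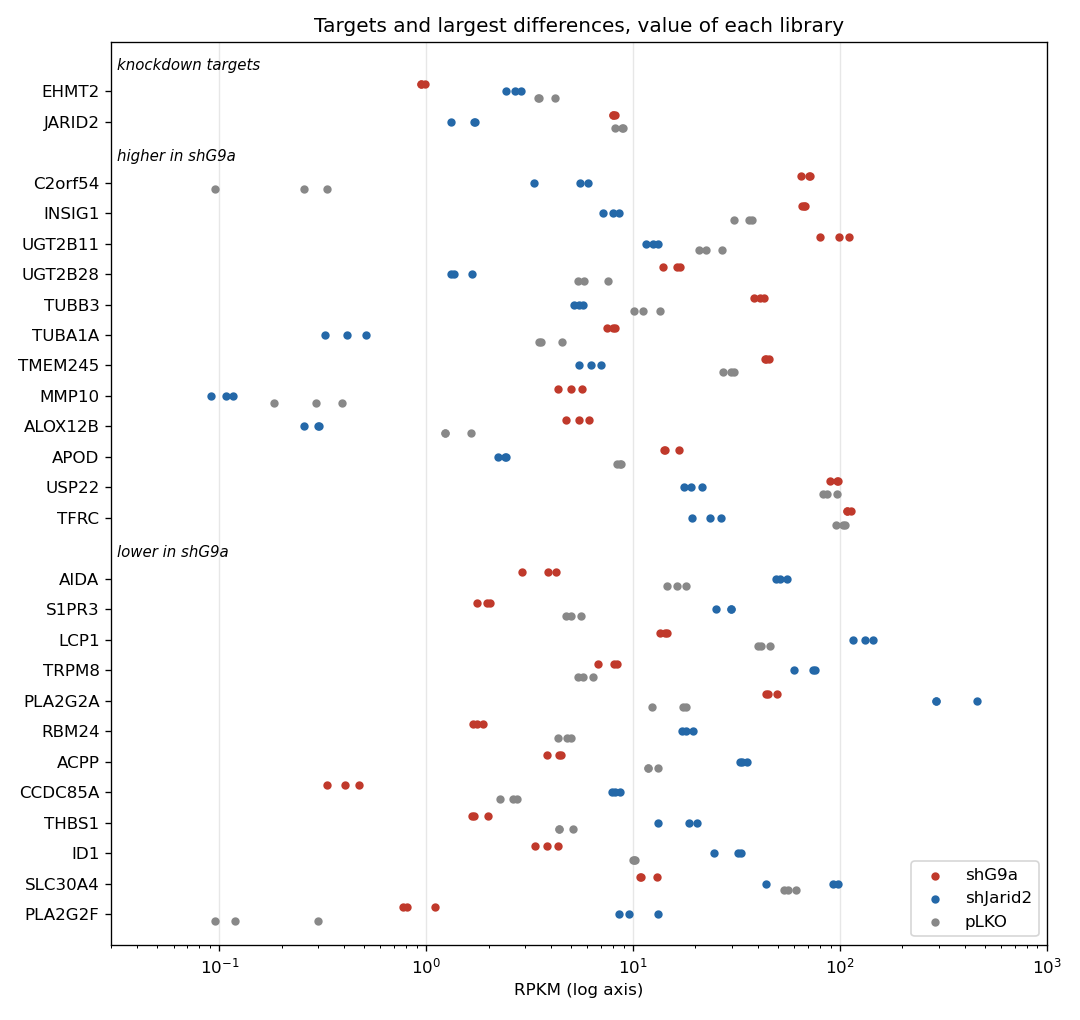
RPKM on a log axis of the 2 knockdown targets, the 12 genes with the largest differences upwards and the 12 with the largest differences downwards; each point is a library of shG9a, shJarid2 or pLKO. The shG9a and shJarid2 points do not overlap in the 2 targets, and lack of overlap was a condition for choosing the other genes. The pLKO points lie between the groups in 10 of the 12 genes higher in shG9a and in 8 of the 12 lower ones.

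The position of the control vector was read for the genes with the largest differences, a choice that favours genes with the control in between. Among the 12 genes with the largest differences upwards, the pLKO libraries lay between the groups in 10, below both in 1 (C2orf54) and overlapping the shG9a libraries in 1 (USP22). Among the 12 downwards, pLKO lay between in 8, below both in 3 and overlapping the shJarid2 libraries in 1 (SLC30A4). Over all genes that passed and did not overlap between the knockdowns, pLKO lay between in 18.5% of the 3151 higher and 18.9% of the 3451 lower ones. Both knockdowns are set against the same pLKO libraries, so their distances from pLKO are not independent. The following genes were picked from those with pLKO between the groups, ranked by their smaller distance from it. Large distances on opposite sides were thus selected for. For UGT2B28 the log2 distance from pLKO was 1.21 in shG9a and -1.56 in shJarid2, and for INSIG1 it was 0.93 in shG9a and -2.01 in shJarid2. For LCP1 it was -1.53 in shG9a and 1.59 in shJarid2, and for ACPP it was -1.34 in shG9a and 1.41 in shJarid2.

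Other genes lay at like levels in the 2 knockdowns and far from the control. ARPP19, whose product restrains the phosphatase PP2A at mitosis, was at 14.1, 14.1 and 13.6 RPKM in shG9a, against 15.5, 15.2 and 11.4 RPKM in shJarid2 and 31.6 ± 3.28 RPKM in pLKO. BCL9L, a coactivator of Wnt signalling, was at 17.37, 18.07 and 16.96 RPKM in shG9a, against 18.44, 17.67 and 15.84 RPKM in shJarid2 and 7.22 ± 0.611 RPKM in pLKO. PIK3C2B, a lipid kinase, averaged 11.8 ± 0.239 RPKM in shG9a, 11.8 ± 2.10 RPKM in shJarid2 and 5.25 ± 0.256 RPKM in pLKO. TUB averaged 3.49 ± 0.280, 3.55 ± 0.790 and 8.16 ± 0.357 RPKM in shG9a, shJarid2 and pLKO, and SKA3, a kinetochore component, averaged 2.77 ± 0.349, 2.71 ± 0.380 and 6.78 ± 0.478 RPKM. These genes were chosen for their small difference between the knockdowns, so their adjusted p, from 0.8645 for SKA3 to 0.9932 for ARPP19, is a description. In BCL9L, 37.8% of the exon bases are shared with a gene on the opposite strand.

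Gene lists were read by how many members passed in each direction and by their median log2 difference, beside 27.9% higher, 30.3% lower and a median of -0.01 over all tested genes. The UGT2B list had the highest median among lists with at least 6 tested genes. Of the 7 UGT2B genes, 6 were tested and all 6 were higher in shG9a, with a median of 1.44. UGT2B11 was at 80.4, 109.9 and 99.2 RPKM in shG9a, against 12.4, 11.6 and 13.2 RPKM in shJarid2 (log2 difference 2.85 ± 0.11 SE, adjusted p = 8.311e-11). UGT2B28 was at 13.98, 16.87 and 16.25 RPKM in shG9a, against 1.31, 1.67 and 1.36 RPKM in shJarid2. UGT2B15, a main androgen-inactivating enzyme of the prostate, was at 51.0, 62.3 and 64.9 RPKM in shG9a and at 20.4, 19.9 and 24.2 RPKM in shJarid2, and its pLKO mean of 8.58 RPKM was below both. UGT2B17, which also inactivates androgens, was at 43.5, 54.3 and 51.0 RPKM in shG9a and at 22.58, 21.75 and 26.04 RPKM in shJarid2, with 11.4 RPKM in pLKO. UGT2B11 and UGT2B28 thus had pLKO between the groups, and UGT2B15 and UGT2B17 had it lowest. UGT2B7 reached the filter only through shG9a, and the family has near-identical copies, so reads may be shared between members.

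Cholesterol synthesis genes were higher in shG9a in 16 of 23 cases and lower in 2, with a median of 0.53. SQLE, squalene epoxidase, was at 32.3, 34.3 and 33.1 RPKM in shG9a and at 14.3, 15.2 and 13.9 RPKM in shJarid2 (log2 difference 1.14 ± 0.060 SE, adjusted p = 1.701e-09). DHCR7, which catalyses a last step of the pathway, was at 107.8, 117.4 and 116.3 RPKM in shG9a and at 48.1, 46.6 and 49.9 RPKM in shJarid2. SREBF2, which encodes the transcription factor of the pathway, was higher in shG9a by 0.63. IDI1, at -0.21, and the late desaturase SC5D, at -0.59, were the members lower in shG9a; IDI1 lost its call under TPM, quantile normalization, the 6 libraries alone (with or without a replicate block) and without shG9a replicate 2 or 3 or shJarid2 replicate 3. Without shJarid2 replicate 3 IDI1 was at -0.14 (limma adjusted p = 0.1138). The list's median distance from pLKO was 0.58 in shG9a and 0.10 in shJarid2.

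Fatty acid synthesis genes were higher in shG9a in 8 of 15 cases and lower in 3, with a median of 0.31. SCD, which desaturates stearic acid, was at 420.4, 452.0 and 438.2 RPKM in shG9a, against 215.3, 195.5 and 153.3 RPKM in shJarid2. FASN, fatty acid synthase, was at 706.9, 656.1 and 646.8 RPKM in shG9a, against 388.6, 346.0 and 321.1 RPKM in shJarid2. The members lower in shG9a were THRSP, at -2.35, the elongase ELOVL5, at -1.32, and malic enzyme ME1, at -1.10. THRSP, which promotes lipogenesis in liver, was at 1.06, 0.502 and 0.887 RPKM in shG9a and at 7.12, 8.36 and 9.12 RPKM in shJarid2. Sphingolipid genes were split, 7 higher and 6 lower of 17, with 4 higher when shG9a replicate 2 or replicate 3 was left out. Subunits of serine palmitoyltransferase, which makes the first sphingolipid precursor, lay on opposite sides. SPTLC1 was at 24.55, 30.21 and 28.98 RPKM in shG9a and at 8.15, 7.72 and 7.43 RPKM in shJarid2 (log2 difference 1.72). SPTSSA was at 5.86, 5.17 and 5.97 RPKM in shG9a and at 27.3, 23.6 and 29.3 RPKM in shJarid2 (log2 difference -2.05). Neither pair of groups overlapped.

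Androgen receptor targets and luminal prostate markers were mostly lower in shG9a. Of 31 tested androgen receptor targets, 17 were lower in shG9a and 6 higher, with a median of -0.55. Their median distance from pLKO was -0.48 in shG9a and 0.30 in shJarid2. KLK2, a kallikrein protease, was at 30.3, 30.2 and 33.0 RPKM in shG9a, against 96.9, 92.0 and 127.4 RPKM in shJarid2 and 90.2 RPKM in pLKO (log2 difference -1.71 ± 0.11 SE, adjusted p = 1.012e-08). KLK3, which encodes prostate-specific antigen, was at 340.9, 368.5 and 383.5 RPKM in shG9a, against 578.9, 534.2 and 729.9 RPKM in shJarid2 and 1108 RPKM in pLKO, so it was below the control in both knockdowns. STEAP1, a protein of the prostate cell surface, was at 62.1, 60.0 and 70.7 RPKM in shG9a and at 199.9, 208.1 and 252.6 RPKM in shJarid2. TMPRSS2, a protease under direct androgen control, did not pass (higher in shG9a by 0.23 under quantile normalization, adjusted p = 0.008915), at 155.6, 171.5 and 168.1 RPKM in shG9a and 169.0, 162.8 and 176.0 RPKM in shJarid2. CAMKK2, a kinase of the same list, was higher in shG9a by 0.47; without shG9a replicate 1 or replicate 2, 3 targets in place of 6 were higher.

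**Figure D3:**
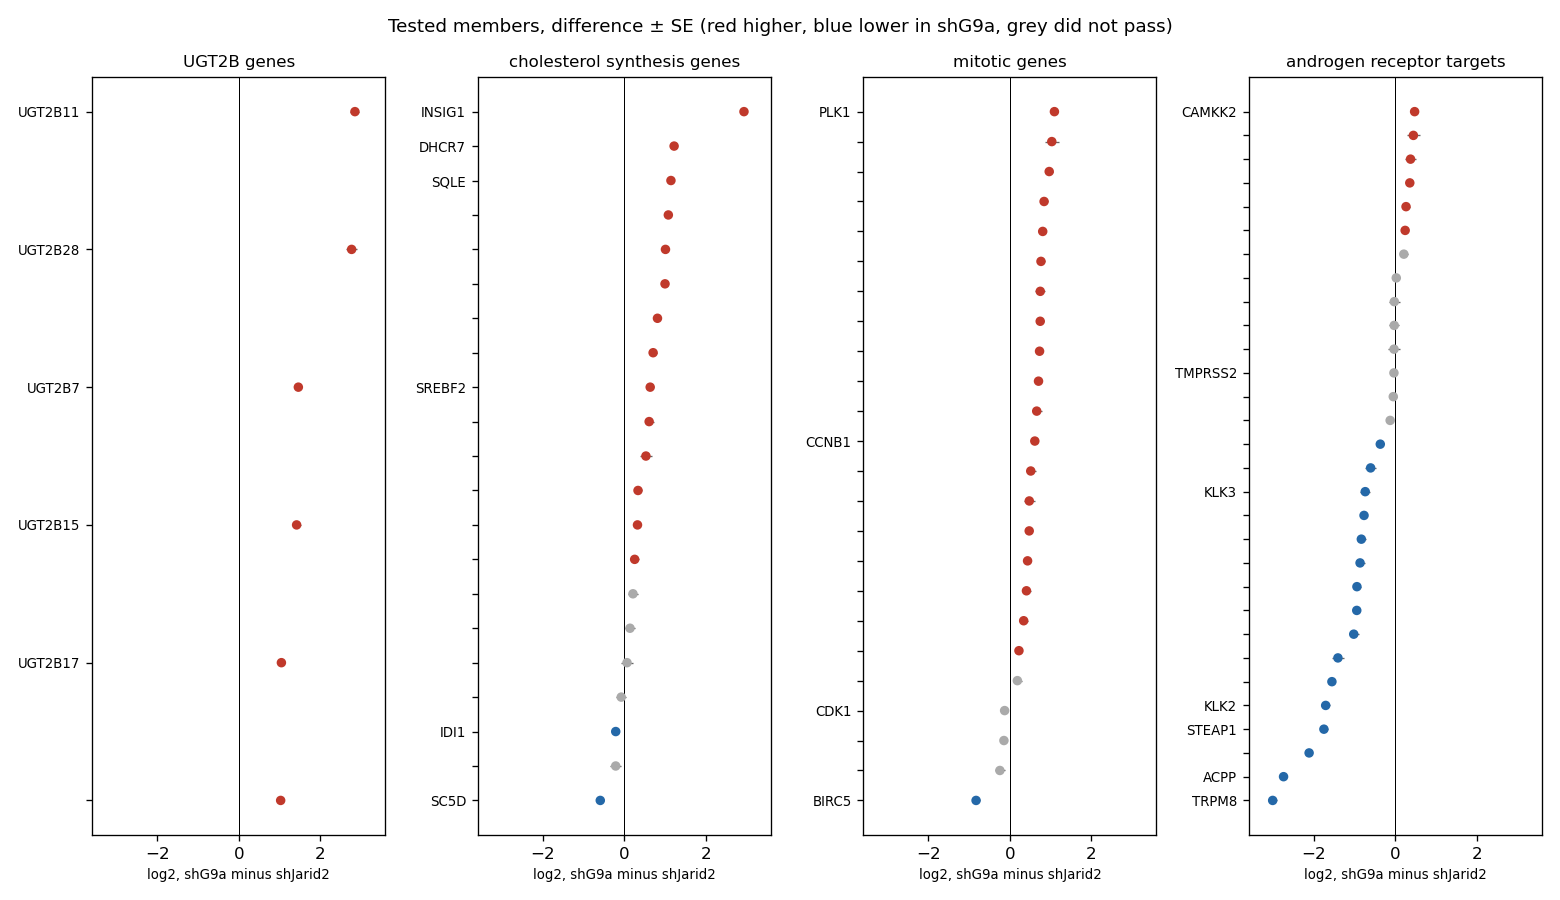
Log2 difference, shG9a minus shJarid2, of tested members of 4 lists (horizontal axis, ± SE), ordered by size; points are genes, red where higher and blue where lower in shG9a at an adjusted p under 0.05, grey otherwise. All 6 UGT2B genes lie to the right of 0, as do 14 called cholesterol synthesis genes and 19 called mitotic genes among those plotted, while 16 called androgen receptor targets lie to the left; members named in the text are labelled.

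Among 15 luminal prostate markers, 10 were lower in shG9a and 2 higher, with a median of -0.59. HOXB13, a transcription factor of the prostate lineage, was at 54.8, 56.8 and 53.6 RPKM in shG9a, against 150.1, 158.1 and 181.3 RPKM in shJarid2 and 126.1 RPKM in pLKO. GATA2, a partner of the androgen receptor, was at 36.6, 37.6 and 36.2 RPKM in shG9a and at 96.8, 103.5 and 101.3 RPKM in shJarid2. The members higher in shG9a were the adhesion genes CDH1, at 0.87, and CD24, at 0.82. The summed level of 9 markers of LNCaP cells was 1043 to 1101 RPKM in shG9a, against 1662 to 1956 RPKM in shJarid2 and 2082 to 2303 RPKM in pLKO. KLK3 carried much of that sum: without it the other 8 summed to 701.6 to 732.3 RPKM in shG9a, against 1109 to 1226 RPKM in shJarid2 and 1046 to 1143 RPKM in pLKO. The luminal list's median distance from pLKO was 0.21 in shG9a and 0.58 in shJarid2. In bulk RNA, fewer cells of a type and less RNA per cell cannot be told apart.

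Markers of other cell types were low throughout. Immune markers summed to 2.73 to 3.46 RPKM in shG9a and 3.59 to 4.95 RPKM in shJarid2, most of it CD68, with the defining genes CD3E and MS4A1 at 0 in all 6 libraries. Endothelial markers summed to 3.20 to 3.31 RPKM in shG9a and 1.66 to 1.99 RPKM in shJarid2, mostly VWF, with KDR at 0. Fibroblast markers summed to 5.37 to 6.18 RPKM in shG9a and 1.83 to 2.37 RPKM in shJarid2, mostly COL1A1, with DCN at 0. Of the 3 basal markers KRT5 and TP63 were at 0, while KRT14 was at 0.0898, 0.0402 and 0.0426 RPKM in shG9a and at 3.79, 3.41 and 4.86 RPKM in shJarid2. Of the longer basal list, 4 genes were tested, with 2 higher (1 without any one shG9a library) and KRT14 lower in shG9a, which fails the filter without any one shJarid2 library. The part of these cell types in the other results was not tested.

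Mitotic and DNA replication genes had medians below the control vector in both knockdowns and were mostly higher in shG9a than in shJarid2. Of 24 mitotic genes, 19 were higher in shG9a and 1 lower (2 without shJarid2 replicate 2 or 3), with a median of 0.56; the median distance from pLKO was -0.512 in shG9a and -0.999 in shJarid2. PLK1, a kinase that drives mitosis, was at 28.0, 27.4 and 23.2 RPKM in shG9a, against 12.26, 11.05 and 11.87 RPKM in shJarid2 and 35.7 RPKM in pLKO (log2 difference 1.09, adjusted p = 5.392e-08). CCNB1, cyclin B1, was at 46.0, 48.1 and 44.0 RPKM in shG9a, against 29.5, 28.5 and 31.3 RPKM in shJarid2 and 65.7 RPKM in pLKO. BIRC5, which encodes survivin, was the exception, at 11.6, 12.9 and 11.4 RPKM in shG9a, against 20.8, 20.3 and 25.3 RPKM in shJarid2 and 35.2 RPKM in pLKO. CDK1 did not pass, at 32.4, 33.5 and 33.2 RPKM in shG9a and 36.2, 36.0 and 36.4 RPKM in shJarid2.

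Of 26 DNA replication genes, 18 were higher in shG9a and 1 lower, with a median of 0.34. GINS1, a subunit of the replicative helicase, was at 17.9, 18.5 and 15.2 RPKM in shG9a and at 6.80, 7.48 and 6.20 RPKM in shJarid2 (log2 difference 1.22). MCM4, a subunit of the same helicase, was at 27.12, 29.02 and 25.75 RPKM in shG9a, against 19.9, 19.7 and 20.9 RPKM in shJarid2 and 34.0 RPKM in pLKO. Thymidylate synthase, TYMS, was the member lower in shG9a, at -0.38, and 58.2% of its exon bases are shared with a gene on the opposite strand. Replication-dependent histone genes went the other way, with 7 of 15 lower and 1 higher in shG9a and a median of -0.30. Among them the linker histone gene HIST1H1C was at 36.4, 33.0 and 35.7 RPKM in shG9a and at 99.6, 97.3 and 146.5 RPKM in shJarid2. Histone genes have near-identical copies, and most of their mRNAs carry no poly(A) tail.

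Most called members of the p53 and ATF4 target lists were lower in shG9a. Of 28 p53 target genes, 15 were lower and 5 higher, with a median of -0.26, and both groups lay below pLKO (median distance -0.65 in shG9a and -0.31 in shJarid2). SESN1, a stress-induced inhibitor of growth signalling, was at 8.94, 8.15 and 8.78 RPKM in shG9a, against 28.8, 33.4 and 31.9 RPKM in shJarid2 and 38.3 RPKM in pLKO. CDKN1A, which encodes the cell cycle inhibitor p21, was at 98.4, 102.0 and 98.0 RPKM in shG9a, against 142.2, 158.8 and 183.1 RPKM in shJarid2 and 186.0 RPKM in pLKO. SUSD6, at 0.95, and PLK3, at 0.68, were higher in shG9a. Of 22 targets of ATF4, the transcription factor of the response to amino acid shortage, 14 were lower and 4 higher (2 without shG9a replicate 2 or shJarid2 replicate 3), with a median of -0.40. The serine synthesis gene PSAT1 was at 36.4, 32.0 and 32.6 RPKM in shG9a and at 83.0, 79.1 and 83.4 RPKM in shJarid2, while MTHFD2, which encodes a mitochondrial folate enzyme, was at 50.43, 52.98 and 50.34 RPKM in shG9a and at 25.47, 21.96 and 24.96 RPKM in shJarid2.

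Unfolded protein response genes were higher in shG9a in 9 of 20 cases and lower in 3, with a median of 0.10. MANF, a secreted stress protein, was at 114.9, 129.9 and 122.9 RPKM in shG9a and at 35.5, 35.0 and 50.8 RPKM in shJarid2 (log2 difference 1.596), and DNAJB9, an endoplasmic reticulum cochaperone, was lower in shG9a, at -0.79. Among the 11 members without the 3′ UTR words described at the end, 3 were higher. Hypoxia and glycolysis genes had 9 of 22 lower and 4 higher, or 2 higher without shG9a replicate 1 or 2 or shJarid2 replicate 2 or 3. SLC2A1, the glucose transporter GLUT1, was at 10.9, 14.3 and 12.7 RPKM in shG9a and at 31.9, 30.0 and 30.1 RPKM in shJarid2, while BNIP3L and ADM were higher in shG9a, by 1.13 and 1.47. ADM reached the filter only through shG9a, so it had to differ. Calcineurin and CaMK genes had 10 of 20 lower and 4 higher. CAMK2N1, an inhibitor of the kinase CaMKII, was at 60.7, 52.1 and 55.1 RPKM in shG9a, against 305.1, 322.3 and 387.0 RPKM in shJarid2 and 32.7 RPKM in pLKO. PPP3CA, the catalytic subunit of calcineurin, was at 34.5, 34.8 and 34.5 RPKM in shG9a, against 106.9 ± 9.22 RPKM (SD, n = 3) in shJarid2 and 182.5 RPKM in pLKO, below the control in both.

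Counts of respiratory chain and ribosomal protein genes depended on single libraries and on the scaling. Of 38 genes of respiratory chain complex I, 20 were lower in shG9a and 1 higher, with a median of -0.33; without shJarid2 replicate 3, 9 were lower and 3 higher, and without shG9a replicate 1 or replicate 3, 12 were lower. NDUFA3 was at 6.37, 6.60 and 6.19 RPKM in shG9a and at 10.5, 10.8 and 15.3 RPKM in shJarid2. Of 77 cytosolic ribosomal protein genes, 11 were higher in shG9a and 1 lower, and without shJarid2 replicate 3, 45 were higher and 0 lower (limma). The higher count was 38 under TPM, 45 under quantile normalization and 33 with a length and GC correction. RPL15 was at 76.5, 84.0 and 76.9 RPKM in shG9a and at 30.7, 31.1 and 43.8 RPKM in shJarid2 (log2 difference 1.16), and RPL5 was higher in shG9a by 0.64. In each of these 3 genes replicate 3 was the highest shJarid2 library. Without that library the counts over all genes were 3477 higher and 3544 lower.

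**Figure D4:**
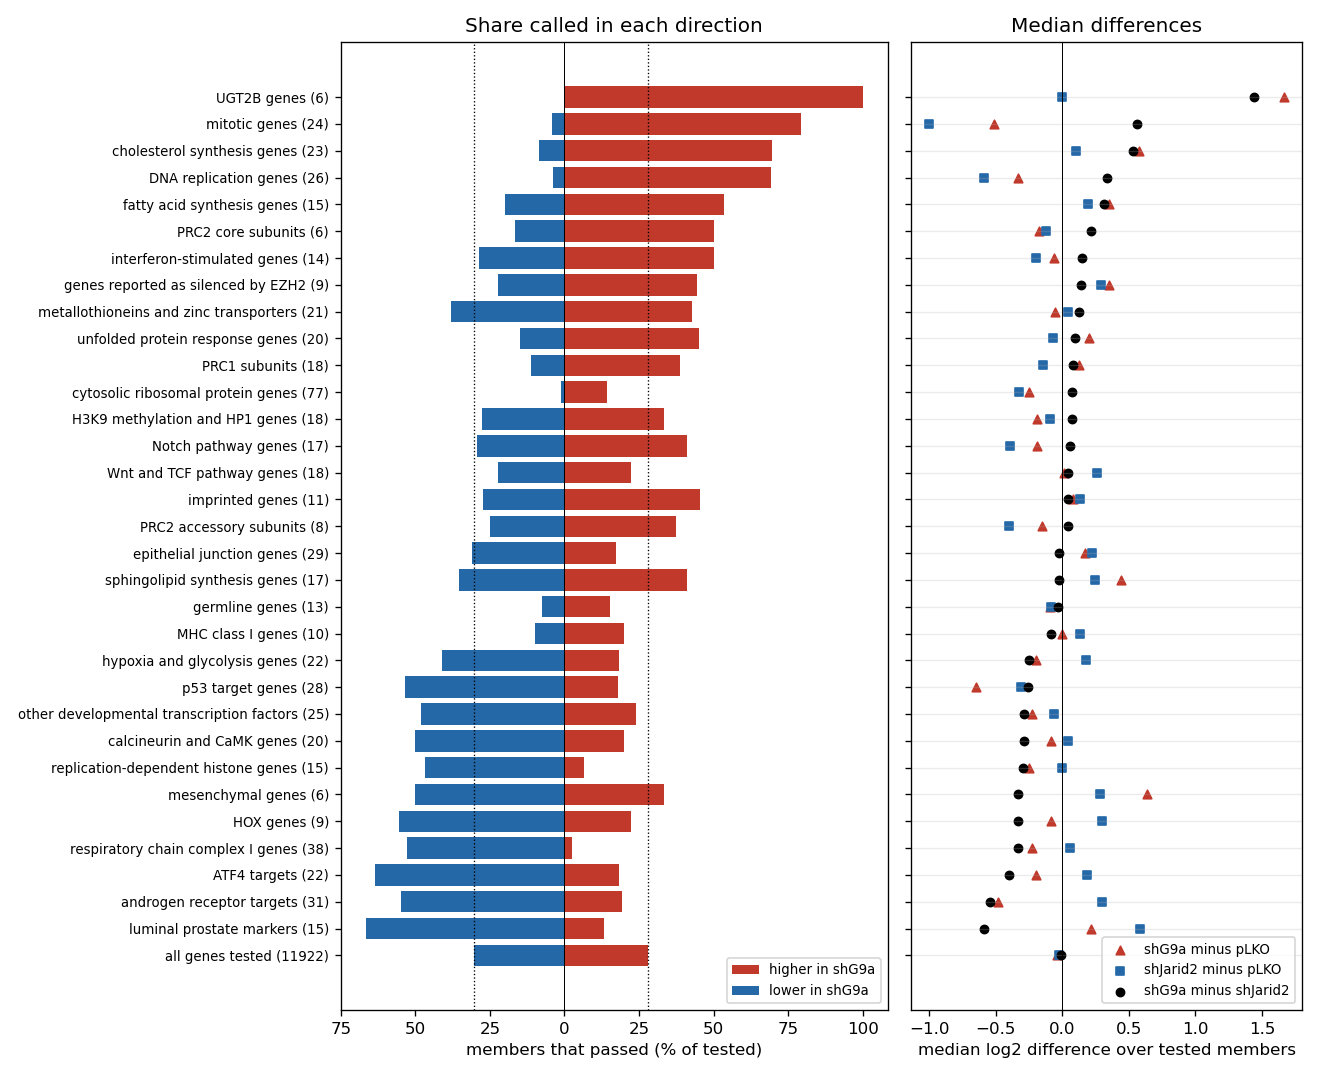
Left, share of the tested members of each list (number in brackets) that were higher (red) or lower (blue) in shG9a, with dotted lines at the shares of all genes. Right, median log2 difference of the members for shG9a minus shJarid2, shG9a minus pLKO and shJarid2 minus pLKO; UGT2B, mitotic and cholesterol synthesis genes have the highest medians between the knockdowns and luminal markers and androgen receptor targets the lowest, among lists with at least 6 tested genes.

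Lists of the polycomb and H3K9 methylation machinery are small, and their called shares lay near the 58.2% of all tested genes. Of 6 PRC2 core subunits, 3 were higher in shG9a and 1 lower. EZH2, the catalytic subunit, was at 14.03, 14.09 and 13.97 RPKM in shG9a, against 10.8, 10.1 and 10.6 RPKM in shJarid2 and 15.6 RPKM in pLKO (log2 difference 0.39, adjusted p = 0.0001018). The histone-binding subunit RBBP4 was higher by 0.63, the alternative catalytic subunit EZH1 was higher by 0.40, and RBBP7 was lower in shG9a, at -0.27, a call lost under quantile normalization, TPM and the replicate block on the 6 libraries alone. Of 8 accessory subunits, 3 were higher and 2 lower. MTF2 was at 10.3, 8.97 and 9.14 RPKM in shG9a and at 5.59, 5.75 and 5.06 RPKM in shJarid2, while AEBP2 was at 3.45, 3.30 and 3.65 RPKM in shG9a and at 7.39, 7.48 and 6.86 RPKM in shJarid2. JARID2 and C10orf12 were the other higher members and PHF1 the other lower one. Without the genes that hold the 3′ UTR words described at the end, 4 core subunits were left, 1 higher and 1 lower. Of the accessory subunits 4 were left, again 1 higher and 1 lower. The higher one, C10orf12, had no matched 3′ UTR and was not searched for the words.

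Of 18 subunits of PRC1, the complex that binds the PRC2 mark, 7 were higher in shG9a and 2 lower (1 lower without shG9a replicate 1 or shJarid2 replicate 2). CBX6, one of its mark-binding subunits, was at 54.6, 60.1 and 56.7 RPKM in shG9a, against 14.8, 13.5 and 14.7 RPKM in shJarid2 and 16.8 RPKM in pLKO, so that it was raised over both other groups in shG9a (log2 difference from shJarid2 1.92 ± 0.065 SE, adjusted p = 2.323e-11). CBX2 and CBX8 were higher by 0.57 and 0.52. Without the genes that hold either 3′ UTR word, 4 of 11 PRC1 subunits were higher and 0 lower. Of 18 genes of H3K9 methylation and HP1, 6 were higher and 5 lower, the target EHMT2 included. CBX1, an HP1 protein that binds the mark written by G9a and related enzymes, was at 24.5, 27.5 and 23.8 RPKM in shG9a, against 9.21, 9.38 and 8.97 RPKM in shJarid2 and 32.5 RPKM in pLKO. WIZ, a zinc finger partner of G9a, was lower in shG9a, at 16.2, 17.2 and 16.3 RPKM, than in shJarid2, at 23.2, 21.3 and 22.4 RPKM. CBX3, another HP1 protein, was lower in shG9a, at -0.28, a call lost under quantile normalization, TPM and the replicate block on the 6 libraries alone.

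Developmental genes, classical targets of PRC2, moved both ways. Of 39 HOX genes, 9 were tested, with 5 lower and 2 higher in shG9a (0 higher without shG9a replicate 2 and 1 without shJarid2 replicate 3); besides HOXB13, HOXC4 was at -0.98, HOXC5 and HOXC13 at -0.40 and HOXC6 at -0.33, while HOXA5 was at 0.45 and HOXC12 at 0.57. Without shJarid2 replicate 3 HOXC12 was at 0.38 (limma adjusted p = 0.08335). In GENCODE, HOXC4 shares 21.3% of its exon bases with HOXC6, and HOXC6 shares 14.9% with HOXC4, on the same strand. HOXC5 shares 59.9% with another entry of that name. Reads may thus be shared between HOXC4, HOXC5 and HOXC6, which are not independent members of the list. Of 25 tested developmental transcription factors outside HOX, 12 were lower and 6 higher, with a median of -0.28. SOX4 was at 74.7, 77.6 and 70.8 RPKM in shG9a, against 21.5, 18.7 and 20.8 RPKM in shJarid2 and 46.6 RPKM in pLKO (log2 difference 1.82, adjusted p = 1.097e-10). TBX3 was at 49.2, 50.1 and 49.8 RPKM in shG9a, against 88.5, 86.7 and 70.4 RPKM in shJarid2, and SOX9 was lower in shG9a at -0.89. Of 17 genes with values that were reported as silenced by EZH2, 9 were tested, with 4 higher and 2 lower. MSMB, a secretory gene of the prostate, was at 8.18, 9.32 and 8.19 RPKM in shG9a, against 2.81, 1.51 and 5.69 RPKM in shJarid2 and 1.09 RPKM in pLKO, and BMPR1B was lower in shG9a at -1.27.

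The 3′ UTRs of the genes that differed were searched for 7-base words, since 1 hairpin was used per target and a hairpin can bind 3′ UTRs through a short seed. The search covered 10434 tested genes with an annotated 3′ UTR of at least 50 bases and all 16384 words. Words were ranked by the excess, relative to counting error, of their share in the genes of one direction over the share expected from 3′ UTR length in 20 length bins. Because the search and the shares use the same calls, no test is given. TTTAACA ranked first among genes lower in shG9a and TGGTGTA first among genes higher in shG9a. For each word, a site is shown from the 4 genes with the largest difference in that direction among those that hold it (genes of the X and Y chromosomes, among others, set aside), with the word in capitals and 8 bases on either side, 5′ to 3′ on the strand of the gene, from GENCODE v29 transcripts on GRCh38.
LCP1: ctcctgtaTTTAACAaaaagtgc
RBM24: ttcattagTTTAACActattatg
CREBL2: ccatgacaTTTAACAtgttgtga
GLUD1: actgtaacTTTAACAcatttaag
INSIG1: atgaagtaTGGTGTAataggaat
TMEM245: agaatagaTGGTGTAattttttc
USP22: tttacattTGGTGTActttcggg
MARCKS: actagaaaTGGTGTAaaggctgt
The sites are at chr13:46127420-46127442 (LCP1, minus strand), chr6:17293531-17293553 (RBM24, plus), chr12:12642232-12642254 (CREBL2, plus) and chr10:87051347-87051369 (GLUD1, minus). Those of the other word are at chr7:155308676-155308698 (INSIG1, plus), chr9:109020069-109020091 (TMEM245, minus), chr17:21001928-21001950 (USP22, minus) and chr6:113861051-113861073 (MARCKS, plus). All lie within a single exon.

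TTTAACA was in 23.0% of the 3318 genes lower in shG9a, 15.4% of the 2885 genes higher in shG9a and 16.3% of the 4231 that did not pass, where 3′ UTR length alone gave 17.4% for the lower genes. Among genes at least 2-fold lower it was in 33.6%. TGGTGTA was in 14.2% of the genes higher in shG9a, 5.0% of those lower and 7.0% of those that did not pass, where length gave 9.3% for the higher genes. Among genes at least 2-fold higher it was in 23.3%. The next words of each ranking overlap these, such as TTAACAA and GGTGTAT. CREBL2, a transcription factor gene with a TTTAACA, was at 3.64, 3.95 and 4.19 RPKM in shG9a, against 31.4, 30.3 and 23.6 RPKM in shJarid2 and 19.6 ± 1.75 RPKM in pLKO. GLUD1, glutamate dehydrogenase, was at 6.91, 6.70 and 7.34 RPKM in shG9a, against 36.6, 38.9 and 33.7 RPKM in shJarid2. MARCKS, an actin-binding substrate of protein kinase C with 2 TGGTGTA, was at 16.97, 18.37 and 17.68 RPKM in shG9a and at 3.46, 3.02 and 3.73 RPKM in shJarid2.

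Genes with TTTAACA alone, 1557 in all, were lower in shG9a in 43.5% of cases and higher in 20.7%. Their median distance from pLKO was -0.16 in shG9a and -0.02 in shJarid2. Genes with TGGTGTA alone, 532 in all, were higher in shG9a in 54.5% of cases (290) and lower in 80 cases, with a median distance from pLKO of -0.01 in shG9a and -0.28 in shJarid2. The 8004 genes with neither word were 26.9% higher and 30.9% lower. Their 3′ UTRs were shorter, with a median length of 729 bases against 2524 for TTTAACA alone and 2260 for TGGTGTA alone. Of the 12 named genes with the largest differences downwards, 2 hold TTTAACA, beside 23.0% of all lower genes and 16.3% of those that did not pass. Of the 11 upwards with a 3′ UTR, 3 hold TGGTGTA, beside 14.2% of all higher genes and 7.0% of those that did not pass. JARID2, which was higher in shG9a, and PPP3CA hold TTTAACA, CBX1 and MANF hold TGGTGTA, and AEBP2 holds both. Without the genes that hold either word, a setting chosen after seeing the data, 2587 genes were higher and 2764 lower of 9492 (56.4%). Genes without a searched 3′ UTR were kept in this setting. Cholesterol synthesis then had 13 higher and 1 lower of 19, and androgen receptor targets 15 lower and 4 higher of 25. Hairpin sequences were not used here, so whether either word matches one was not tested.

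**Figure D5:**
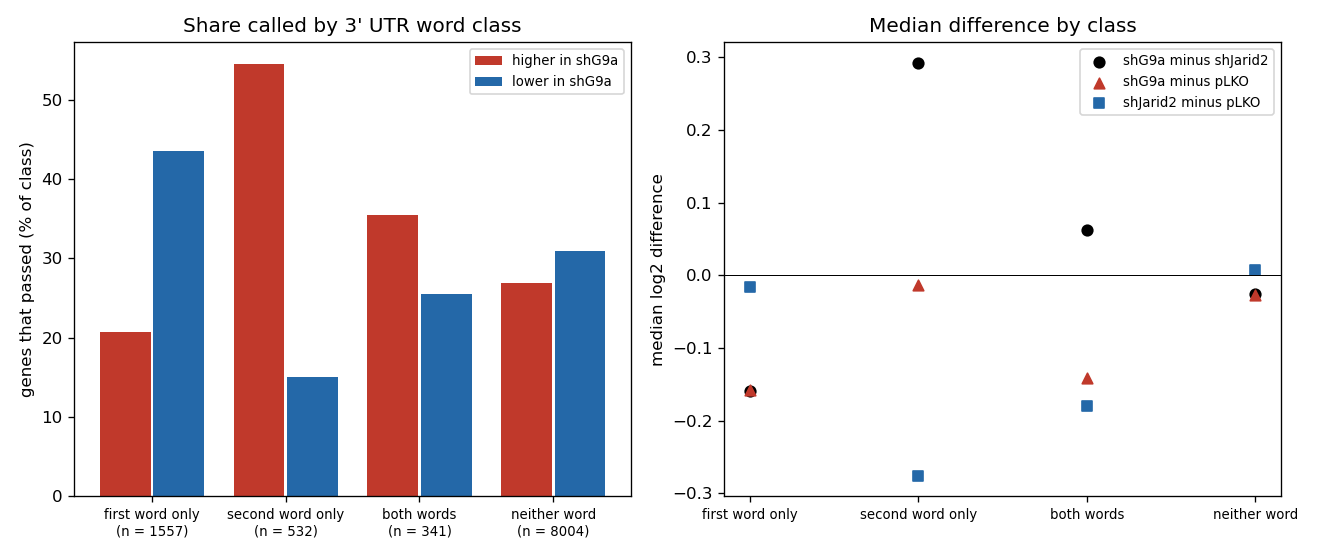
Left, share of genes higher (red) and lower (blue) in shG9a among genes whose 3′ UTR holds the first word (TTTAACA) alone, the second (TGGTGTA) alone, both or neither, with the number of genes in each class. Right, the median log2 difference of each class for shG9a minus shJarid2 and for each knockdown minus pLKO; the first class lies lower in shG9a and the second lower in shJarid2, relative to pLKO.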

How the data were processed

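Processed RNA-seq values of LNCaP cells were analysed as RPKM per gene, the unit in which the authors deposited them, in 1 table of 15 libraries. The labels' protocols name the NEBNext Ultra kit, and STAR and hg38 are named in the submitters' processing notes; no source used here gives the counting tool, its strand setting or its gene annotation, so antisense partners cannot be told apart. The table held 26475 names, 32 without values, and 0 of the 13 mitochondrial mRNAs.

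Values were taken as log2(RPKM + 1), so differences understate the change of low genes. limma 3.58.1 in R 4.3.3 was fitted over all 15 libraries with a term for group and a variance trend, on the 11922 genes that reached 1 RPKM in 3 or more of the 6 libraries compared, and p-values were adjusted by Benjamini-Hochberg over all of them, with a threshold of 0.05. Every adjusted p comes from limma. RPKM keep no counts; depth was read from the step of 1 read in short RNA genes, where 81.0% to 82.3% of values under 50 reads lay within 0.05 of a whole read. The procedure was tested on simulated data with independent noise for each gene and library. A library that stands apart, as shJarid2 replicate 3 does, was not simulated.

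Named genes were the 12 largest differences each way among called genes whose libraries did not overlap and whose higher group averaged 2 RPKM or more, without clone, locus and pseudogene names (a name ending in P and a number was skipped only where GENCODE has no coding gene). To these were added 5 each way with pLKO between the groups, 5 with the smallest difference among genes far from pLKO, and up to 4 per list by p. Further list members, those that did not pass among them, were named for their role after their values were seen. The members and all 38 lists were chosen with earlier results of these data known. GENCODE v29 matched 97.8% of tested genes and gave coordinates, exon overlaps and 3′ UTRs. Alternatives were other pseudocounts, filters, scalings, sets of libraries, a replicate block, a length and GC correction and no variance trend. Values of some single genes are not reported here; counts and medians of lists include them.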

Additional observations from a re-analysis of the deposited data

How the results depend on the processing

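The counts of 3331 higher and 3613 lower genes lay between 2587 and 4339 higher and between 2740 and 3886 lower over all alternatives tried, the lowest count of higher genes being that without the genes that hold a 3′ UTR word. The number at least 2-fold higher in shG9a, 376, was 689 with a pseudocount of 0.1. The median difference, -0.007, was -0.044 for genes with a mean RPKM of at least 3 and 0.114 under TPM. TPM divides each library by its RPKM sum. For replicates 1 to 3 that sum was 255052, 265270 and 257435 in shG9a and 268608, 274489 and 318754 in shJarid2. Why the sums differ, and why the median moved with the filter, was not tested. Leaving out 1 library at a time gave 2639 to 3477 higher, 3218 to 3544 lower, 318 to 421 at least 2-fold higher and 470 to 546 at least 2-fold lower, with medians from -0.028 to 0.011. The 6 libraries alone gave 2735 and 3095, quantile normalization 3674 and 3452, and the length and GC correction 3881 and 3886.

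The replicate numbers do not pair the libraries: deviations of same-numbered libraries correlated with r of 0.103, -0.034 and 0.035. With the replicate number as a block the counts were 3284 higher and 3557 lower, and with the 6 libraries alone 2604 and 2940.

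Of 174 named genes over 20 alternatives, 10 lost the call under at least 1: RBBP7, MAGEC2, FZD6, CD68, C10orf12, IDI1, CBX3, HOXA5, HOXC5 and HOXC12. The sign turned for 4 genes, none of which passed as reported. TMPRSS2 was at 0.235 under quantile normalization, 0.107 under TPM and -0.065 to 0.0052 with 1 library left out (-0.0082 without shJarid2 replicate 3). CDK1 was at 0.052 under quantile normalization and 0.011 under TPM. With the length and GC correction SUZ12 was at -0.017 and LCOR at -0.111. With 1 library left out SUZ12 ranged from -0.087 to 0.120 and LCOR from -0.108 to 0.243. Over all genes, the larger share was higher in place of lower under TPM, quantile normalization and no filter. Genes that reached the filter through 1 group have no value when a library of that group is left out, which holds for 13 named genes. Among them are EHMT2, TUBA1A, MMP10, ALOX12B, CCDC85A, UGT2B7, KRT14, ADM, NLRC5, WNT5A, SYP and TWIST1. EHMT2, MMP10 and ALOX12B also fail a mean RPKM of at least 3. Of the list counts, 189 moved by over 1.5 times and 2091 did not. Low genes are limited by depth: a few reads stand behind values near 0.1 RPKM.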

Other observations

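Lists not described above were mixed, beside 27.9% higher and 30.3% lower over all genes. Of 14 tested interferon-stimulated genes, 7 were higher in shG9a and 4 lower (STAT2 0.87, IFIH1 -0.88 on the log2 scale), and of 10 MHC class I genes 2 were higher (1 without any one shG9a library) and 1 lower, with the regulator NLRC5 at 1.24 and B2M at -0.56. Of 17 Notch pathway genes, 7 were higher and 5 lower, with the target HES1 at -1.59 and HES6 at 1.53; without any single shG9a library 4 were higher. Of 18 Wnt pathway genes, 4 were higher (1 without shG9a replicate 1 or 2, 2 without shG9a replicate 3) and 4 lower, with WNT5A at 1.15 and WNT7B at -0.93. NLRC5 and WNT5A reached the filter only through shG9a, so they had to differ.

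Of 29 epithelial junction genes, 5 were higher and 9 lower, with the desmosomal cadherin DSG2 at 1.44; under TPM 11 were higher and 4 lower, and without shJarid2 replicate 1 or replicate 2, 5 and 4 were lower. Of 21 metallothionein and zinc transporter genes, 9 were higher and 8 lower, with MT1G at 1.65. Of 25 clustered protocadherins 3 were tested and 2 were higher, PCDHB2 at 1.57 and PCDHB5 at 1.18. Of 13 genes on the germline list, 2 were higher (1 without shJarid2 replicate 1 or 2) and 1 lower (2 without shG9a replicate 2 or shJarid2 replicate 1). The higher ones were TUBB3, the tubulin best known from neurons, at 2.69, and MAGEC2, at 0.41, which lost its call under some alternatives. Of 11 imprinted genes 5 were higher (3 without shJarid2 replicate 2) and 3 lower, with SNRPN at -1.01. Of 6 mesenchymal genes, 2 were higher and 3 lower, with TWIST1 at -0.74. TWIST1 reached the filter only through shJarid2, so it had to differ. Of 2 neuroendocrine markers, 1 was higher, SYP at 1.04; the count was 0 without any one shG9a library, as SYP reached the filter only through shG9a, and 2 without shJarid2 replicate 1.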
